A study of Mus musculus with 6 samples.

Results

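The genes examined were the 10 that encode the core subunits of cohesin (Smc1a, Smc3, Rad21, Stag1, Stag2), its loader (Nipbl, Mau2), its release and maintenance factors (Wapl, Pds5a) and the boundary protein CTCF (Ctcf). They were chosen by name, with earlier results of these data known, from 27706 protein-coding and lincRNA genes of which 21853 were protein-coding. Each was described by the H3K27ac peaks of control cells around it. A peak was assigned to the promoter where it overlapped, by at least 1 bp, a window of ±1 kb around any annotated transcription start site (TSS) of the gene. The remaining peaks were assigned to the gene body where they overlapped the gene, and otherwise to its surroundings where they lay within 50 kb of either end. All 10 genes were present in the annotation.

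H3K27ac, acetylation of histone H3 at lysine 27, was measured by ChIP-seq in mouse embryonic stem cells (mESCs), with chromatin of the human line HEK293T added as a spike-in. The labels name the cells as E14Tg2A Rosa26-Cre Oct4-IRES-Puro, and all groups, controls included, carried these alleles and grew in N2B27 medium with LIF, the MEK inhibitor PD0325901 and the GSK3 inhibitor CT-99021. For 2 h, control cells received the solvent DMSO, NVP-2 cells received 100 nM of this CDK9 inhibitor, and ActD cells received actinomycin D, which blocks RNA polymerases, at 800 nM by the sample labels and 1 µg/ml by the protocols. Each group had 2 replicates. The treated groups were not analysed here, and the values below come from 1 list of 22973 peaks called on both control replicates together. It gives only the position of each peak, so no replicate error, no height and no depth stands behind any value, no test was made, and every comparison below is a description. Where a peak is not listed, signal below the thresholds of the authors and no signal at all cannot be told apart. Equally, a mark in fewer cells and a weaker mark in each cell cannot be told apart in such a bulk sample. The labelled cell type was checked against marker genes. All 8 embryonic stem cell markers, among them Pou5f1, Nanog and Sox2, had a promoter peak, of 17768 to 71785 bp, against 3 of 8 markers of other early or differentiated cells (Gata4, Gata6 and Eomes, of 1233 to 2607 bp).

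Cohesin is a ring that entraps DNA. SMC1A and SMC3 form its long arms, RAD21 closes it, and a STAG protein, STAG1 or STAG2, binds RAD21. NIPBL with MAU2 loads the ring and drives the extrusion of chromatin loops, WAPL with a PDS5 protein takes it off, and CTCF bound to DNA in the convergent orientation halts it, which sets the bases of loops and the borders of topological domains. H3K27ac is deposited by the acetyltransferases p300 and CBP and is found at active promoters and enhancers.

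All 10 genes had at least 1 promoter peak, in a list in which 51.0% of protein-coding genes did (11149 of 21853, 95% Wilson interval 50.4 to 51.7%, counting error only). The 10 genes held 36 peaks in all, 11 at promoters, 4 in gene bodies and 21 within 50 kb. Gene body peaks were found in 3 of the 10, against 19.3% of all protein-coding genes and 27.7% of those with a promoter peak. At least 1 peak within 50 kb was found at 8 of the 10, against 67.5% of protein-coding genes. By these definitions, the shares with gene body and neighbouring peaks lay near their backgrounds, and the genes are not set apart by them. With gene body peaks assigned by peak midpoint, 5 of the 10 genes had one, against 22.7% of protein-coding genes. The added genes, Smc1a and Ctcf, were counted through their promoter peaks. Of 29 annotated TSSs of the 10 genes, 24 had a peak on their window, against 49.7% of the TSSs of protein-coding genes. That background includes the TSSs of genes without any promoter peak, whereas all 10 genes had one. The share over marked genes alone was not computed.

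**Figure D1:**
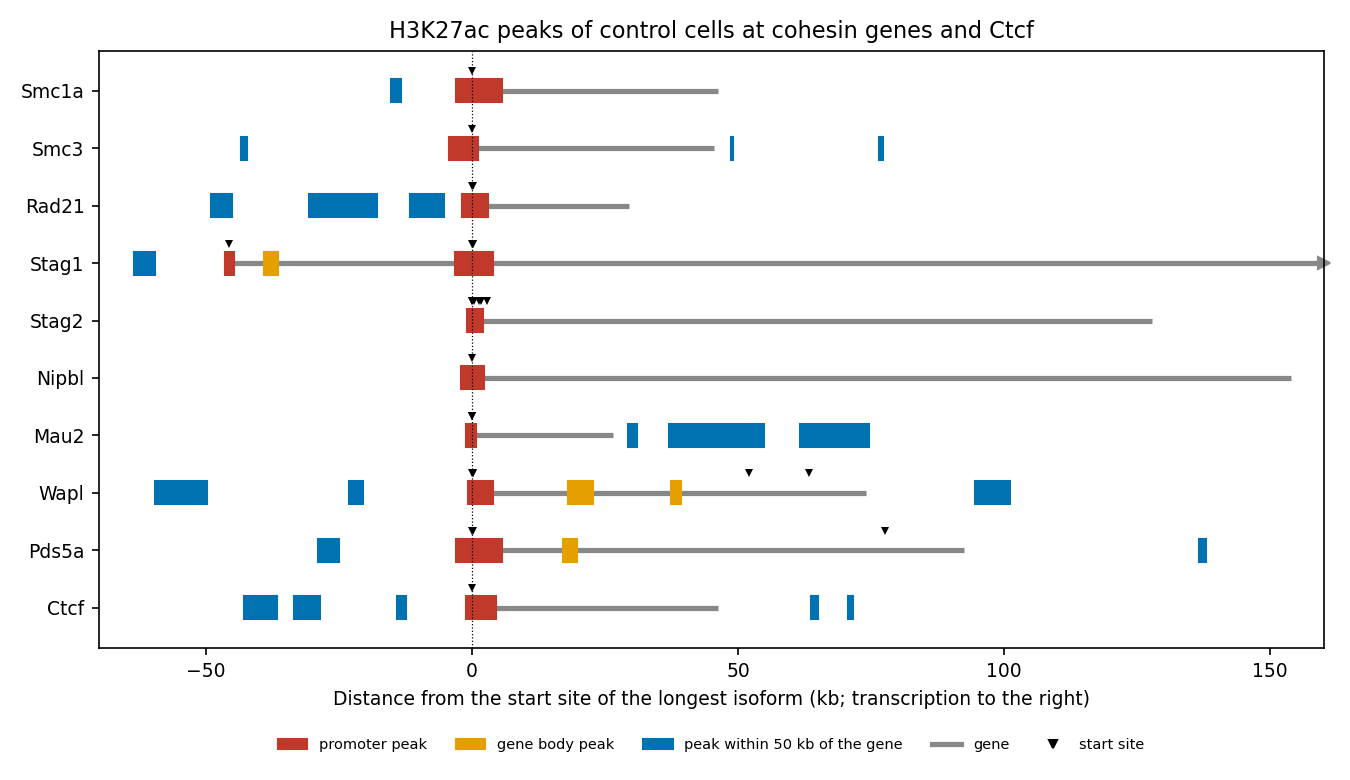
H3K27ac peaks of control mESCs at the 10 genes, by distance in kb from the TSS of the longest isoform, with transcription to the right. Red boxes are promoter peaks, orange boxes gene body peaks, blue boxes peaks within 50 kb of the gene, grey lines the genes and triangles the TSSs. Stag1 runs past the right edge, so that its 2 TSSs without a nearby peak are not drawn. Each gene has a red box over its TSS, orange boxes are present at Stag1, Wapl and Pds5a only, and Stag2 and Nipbl have no blue box.

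The widest promoter peak of each gene spanned between 1964 bp at Mau2 and 8682 bp at Pds5a, with a median of 5106 bp. Over all 11149 marked protein-coding genes, the median was 2225 bp and the quartiles were 1570 and 4990 bp. The peaks of 9 of the 10 genes were wider than that median, and Mau2 was the exception. Peaks closer together than 2001 bp do not occur in the list, since the authors merged neighbours, so a wide peak can hold several separate maxima. In the rest of the text, the percentile of a width is the share of the 11149 genes with a narrower widest promoter peak. Among the 10778 promoter peaks of all genes, each counted once, the percentiles of the 10 genes were 45.6 to 88.2, against 43.2 to 86.7 over genes.

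**Figure D2:**
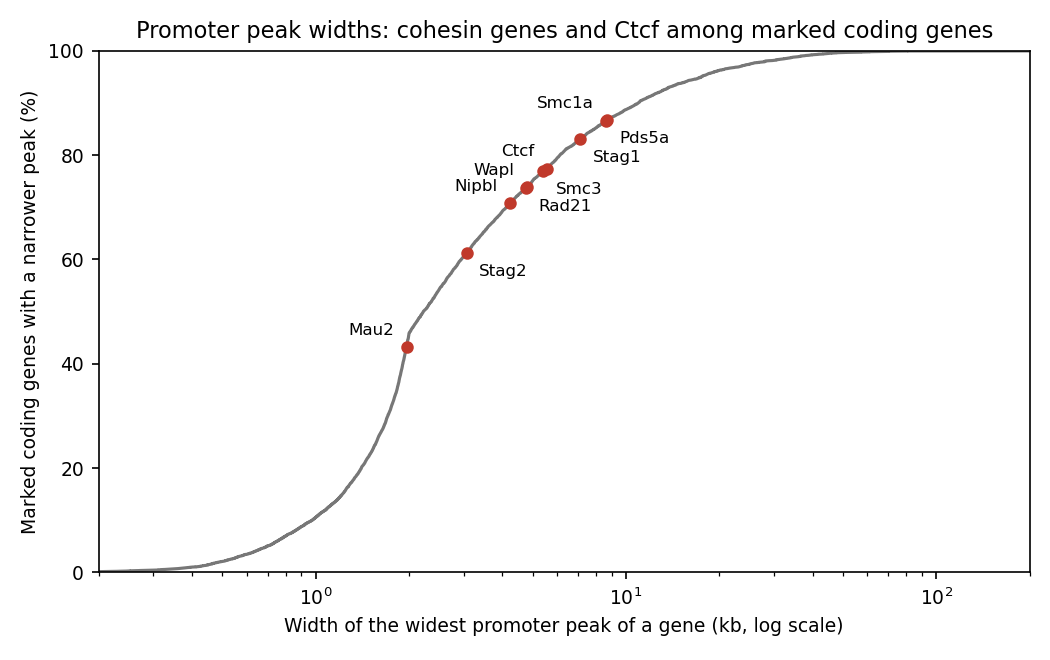
Width in kb (log scale) of the widest promoter peak of a gene, against the percentage of the 11149 marked protein-coding genes with a narrower one. The grey line holds all these genes and the red points the 10 genes, of which Mau2 lies at 43.2%, Stag2 at 61.3% and the other 8 between 70.8 and 86.7%.

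The ring genes Smc1a, Smc3 and Rad21 each had a single promoter peak. Smc1a (ENSMUSG00000041133.11, X:152016428-152062694, plus strand) encodes an arm of the ring. Its peak at X:152013440-152022070 was 8631 bp wide, at the 86.6th percentile, and reached 2988 bp upstream of the TSS and 5642 bp downstream, into intron 1. Promoter peaks on the X chromosome had a median width of 5633 bp over 281 peaks, against 2103 bp over all 10778 promoter peaks, and among those on X the Smc1a peak stood at the 65.3rd percentile. The same peak covered the TSS of Ribc1, which starts 133 bp upstream and is transcribed the other way. The sequence of the whole stretch between both TSSs is shown to let the shared promoter be seen. It is read on the strand of Smc1a from the RefSeq promoter table of GRCm38.p6 (X:152016296-152016427, 132 bases), with a CCAAT box and a GC box (GGGCGG), matched on either strand, in capitals.
Smc1a: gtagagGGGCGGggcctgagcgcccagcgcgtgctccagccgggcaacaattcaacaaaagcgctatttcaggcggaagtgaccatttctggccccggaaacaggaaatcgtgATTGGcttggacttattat
It holds 9 CpG dinucleotides and 56.1% G and C. The CCAAT box begins 19 bp before the TSS of Smc1a, and the GC box begins 126 bp before it, at the end next to Ribc1. No peak lay in the rest of the 46.3 kb gene. Downstream of the promoter peak, the next peak followed after 208.7 kb, a longer gap than at 90.0% of marked protein-coding genes, and upstream after 10.3 kb, at the promoter of Hsd17b10 (1855 bp). Here and below, gaps are ranked over marked genes of all chromosomes and lengths. No background for X or for genes of like length was computed for them.

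Smc3 (ENSMUSG00000024974.10, 19:53600398-53645833, plus strand) encodes the other arm. Its promoter peak at 19:53596174-53601592 was 5419 bp wide (76.9th percentile) and lay mostly upstream, reaching 4224 bp upstream of the TSS and 1194 bp downstream, into intron 2. This was the longest upstream reach of the 10. The gene body had no other peak, and of its 3 neighbouring peaks none was wider than 1158 bp. One, of 1158 bp, lay 42.3 kb upstream outside any gene, which here and below means any protein-coding or lincRNA gene. Another, of 402 bp, was the narrowest peak near any of the 10 genes and lay 48.7 kb downstream of the TSS, past the end of Smc3. The last, of 745 bp, covered the promoter of Rbm20.

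Rad21 (ENSMUSG00000022314.10, 15:51962240-51991747, minus strand) encodes the subunit that closes the ring and that separase cuts at anaphase. The promoter peak at 15:51988788-51993544, of 4757 bp (73.7th percentile), covered both annotated TSSs and reached 1797 bp upstream and 2959 bp downstream, into intron 1. Its 3 neighbouring peaks were all upstream and wide. They began 5.19 kb, 17.9 kb and 45.0 kb from the TSS and spanned 6457 bp, 12685 bp and 3964 bp. The first pair lay outside any annotated gene, and the last covered the promoter of Aard. The gap of 3.4 kb between the promoter peak and the first of them was the shortest upstream gap of the 10 genes, shorter than at all but 6.68% of marked protein-coding genes. On the other side, no peak lay in the gene or for 110.3 kb downstream of the promoter peak.

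The STAG genes differed in how many promoter peaks they had and in how far their start sites lay apart. Stag1 (ENSMUSG00000037286.15, 9:100597798-100959375, plus strand, 361.6 kb) had 6 annotated TSSs and was the only one of the 10 with 2 or more separate promoter peaks, as had 5.37% of marked protein-coding genes. The wider peak, of 7112 bp at 9:100640360-100647471 (83.0th percentile), covered 3 TSSs, among them that of the longest isoform, from which it reached 3088 bp upstream and 4023 bp downstream. The narrower, of 1612 bp at 9:100597091-100598702, covered a TSS 45650 bp further upstream that belongs to a single protein-coding transcript. Between both, 36.4 kb upstream of the longest isoform, lay a peak of 2613 bp that falls in the body of the gene as annotated. A gene body peak was found at 54.4% of protein-coding genes of like length, which means 0.5 to 2 times that of Stag1. The 2 remaining TSSs, inside the gene, lay 187 kb and 142 kb from the nearest peak. From the wider peak onwards, the gene and its surroundings held no peak for 384.3 kb, a longer gap than at 95.1% of marked protein-coding genes. The peaks differed in base composition as well. The wider promoter peak had a CpG observed over expected ratio of 0.652, the narrower 0.325 and the peak between them 0.154. The 200 bases before the main TSS (9:100643248-100643447, plus strand, RefSeq, GRCm38.p6) are shown because they carry the largest number of GC boxes among the 7 genes with a matched RefSeq promoter. Capitals mark 3 GC boxes and a CCAAT box on the reverse strand.
Stag1: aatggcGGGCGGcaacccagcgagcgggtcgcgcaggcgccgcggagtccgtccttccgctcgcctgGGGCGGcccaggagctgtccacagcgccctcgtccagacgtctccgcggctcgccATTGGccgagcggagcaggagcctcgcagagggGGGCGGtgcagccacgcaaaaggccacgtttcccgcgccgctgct
They hold 28 CpG dinucleotides and 74.0% G and C. The GC boxes begin 45, 133 and 194 bp before the TSS and the CCAAT box 78 bp before it.

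Stag2 (ENSMUSG00000025862.14, X:42149317-42277185, plus strand), which encodes the alternative STAG subunit, also had 6 annotated TSSs, but these lay within 2863 bp of each other. One peak of 3071 bp at X:42148382-42151452 (61.3rd percentile, and 31.5th among promoter peaks on X) covered 5 of them, and the last began 728 bp beyond its edge. The peak reached 935 bp upstream and 2135 bp downstream, into intron 1. No other peak lay in the gene of 127.9 kb or within 50 kb of it. Its gaps, of 71.3 kb upstream and 1314 kb downstream, were longer than at 74.8% and 99.1% of marked protein-coding genes, and the downstream gap was the longest of the 10. It also held the starts of Tex13c2, Sh2d1a and Tenm1. These genes, and those named below for starting inside a gap, were chosen after the values were seen. The Stag2 peak had the highest GC content of the promoter peaks, 60.0%, and a CpG ratio of 0.771.

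The loader genes had no peak in the gene body, where 47.2% of protein-coding genes of like length to Nipbl and 20.4% of those of like length to Mau2 had one. For the other 5 genes without a gene body peak, that share was 27.6% (Smc1a), 27.3% (Smc3), 21.5% (Rad21), 43.7% (Stag2) and 27.7% (Ctcf). Nipbl (ENSMUSG00000022141.7, 15:8290617-8444463, minus strand), which encodes the large loader subunit, had 1 promoter peak of 4230 bp at 15:8442188-8446417 (70.8th percentile). It lay nearly evenly about the only TSS, with 1954 bp upstream and 2275 bp downstream, and had the highest CpG ratio of the 36 peaks, 0.816. Like Stag2, Nipbl had no peak within 50 kb, and it was the only one of the 10 without a peak within 100 kb. The nearest peaks lay 122.5 kb upstream, with the start of Gm2310 in between, and 272.4 kb downstream. The peak covered 1.48% of the gene, the smallest share among the 10.

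Mau2 (ENSMUSG00000031858.16, 8:70016123-70042734, minus strand), which encodes the partner of NIPBL, had a single promoter peak, of 1964 bp at 8:70041943-70043906 (43.2nd percentile), the narrowest when the widest of each gene is compared. It covered all 3 TSSs and reached further upstream (1172 bp) than downstream (791 bp). It also covered the TSS of Sugp1, which encodes a splicing-related protein and starts 79 bp away in the opposite direction, so the peak lay across a shorter divergent promoter than that of Smc1a and Ribc1. The sequence between both TSSs is shown for comparison with it (8:70042735-70042812, 78 bases, minus strand, RefSeq, GRCm38.p6). The capitals mark its single GC box, read on the reverse strand and beginning 10 bp before the TSS of Mau2.
Mau2: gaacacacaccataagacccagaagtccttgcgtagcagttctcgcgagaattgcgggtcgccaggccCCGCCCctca
The stretch holds 6 CpG dinucleotides and 60.3% G and C, and none of the other motifs searched. RefSeq lists another Mau2 start, 13221 bp downstream of this one, which lay in a gap of 28.6 kb between peaks. The sequence about it (250 bases before and 50 after) had a CpG ratio of 0.0739, against 0.908 around the first. Downstream of Mau2 lay 3 peaks, of 1619 bp outside any gene and of 17875 and 12966 bp on promoters of Gatad2a, which encodes a subunit of the NuRD complex. The 17875 bp peak was the widest of the 36. Upstream, no peak lay for 85.4 kb, across Sugp1 and the starts of Tm6sf2, Hapln4 and Ncan.

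The release and maintenance genes Wapl and Pds5a had peaks further inside the gene as well as at the promoter. Wapl (ENSMUSG00000041408.18, 14:34673928-34747983, plus strand), whose protein opens the ring, had a promoter peak of 4793 bp at 14:34673213-34678005 (73.8th percentile). It began 715 bp upstream of the TSS and ended 4077 bp downstream, in intron 2. This was the most one-sided of the 10, with a downstream reach 5.7 times the upstream reach. There were 2 further peaks in the gene, of 4709 bp across exons 3 and 4 and of 1941 bp in intron 4, beginning 18.1 kb and 37.4 kb from the TSS. Of 5 annotated TSSs, 3 lay in the promoter peak, and the other 2 lay 12.8 kb and 24.0 kb from the nearest peak. With all 3 peaks, 14.5% of the gene was covered, the largest share of the 10. Peaks also lay 20.5 kb and 49.8 kb upstream, outside any gene (2638 and 9686 bp), and downstream of the gene at the promoter of Gm49032, in A930038B10Rik (6512 bp). Among protein-coding genes of 0.5 to 2 times the length of Wapl, 35.6% had a gene body peak.

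Pds5a (ENSMUSG00000029202.12, 5:65605721-65698273, minus strand) encodes a PDS5 protein, which binds the ring with WAPL and also protects it. It had the widest promoter peak of the 10, of 8682 bp at 5:65692488-65701169 (86.7th percentile), with a reach of 3001 bp upstream and 5680 bp downstream, into intron 2. Over the 9663 protein-coding genes with the TSS of the longest isoform in a peak, the one most like it in both reaches was Smc1a, at a distance of 0.0115 on the log2 scale. For Mau2, at the other end of the range of widest peaks, it was Lrp1 (10:127538161-127621148), which encodes a lipoprotein receptor, with reaches of 1175 and 787 bp and a distance of 0.00818. In intron 2 of Pds5a lay a second peak, of 2703 bp at 5:65678348-65681050, beginning 17.1 kb from the TSS. Of 3 annotated TSSs, the one near the end of the gene lay 57.7 kb from any peak. A peak of 3976 bp lay 24.9 kb upstream outside any gene, and another of 1336 bp lay downstream of Pds5a, in Ube2k. Gene body peaks were found at 39.6% of genes of like length.

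Ctcf (ENSMUSG00000005698.15, 8:105636568-105682922, plus strand) encodes the zinc finger protein that halts cohesin. Its promoter peak at 8:105635506-105641054 was 5549 bp wide (77.4th percentile) and reached 1073 bp upstream of its only TSS and 4475 bp downstream, 4.17 times as far, into intron 1. The peak also covered starts of Agrp and of the lincRNA Gm5914, 814 bp and 771 bp downstream of the Ctcf start and on the opposite strand, so that both transcripts run across the Ctcf promoter. Smc1a, Mau2 and Ctcf were thus the 3 of 10 whose promoter peak covered the window of another gene, against 30.0% of marked protein-coding genes, the same share. Ctcf had 5 peaks within 50 kb, more than any other of the 10. The nearest, of 1746 bp, lay 12.3 kb upstream in Agrp, followed by a peak of 5002 bp at the promoter of Ripor1 (28.5 kb) and one of 6050 bp in Agrp (36.7 kb). The other 2, of 1292 and 854 bp, lay downstream on promoters of other genes, after a gap of 59.3 kb that held all of Ctcf past its promoter and the start of Carmil2. The 200 bases before the RefSeq start, which is 41 bp upstream of the GENCODE TSS, are shown for the highest CpG ratio of the main starts found in the table (8:105636338-105636537, plus strand, GRCm38.p6). Capitals mark a GC box on the reverse strand, which begins 91 bp before the RefSeq start.
Ctcf: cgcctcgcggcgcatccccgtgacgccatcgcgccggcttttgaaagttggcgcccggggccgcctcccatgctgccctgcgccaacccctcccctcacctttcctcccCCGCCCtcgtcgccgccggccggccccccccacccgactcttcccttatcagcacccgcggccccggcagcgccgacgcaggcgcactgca
They hold 27 CpG dinucleotides and 75.5% G and C.

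**Figure D3:**
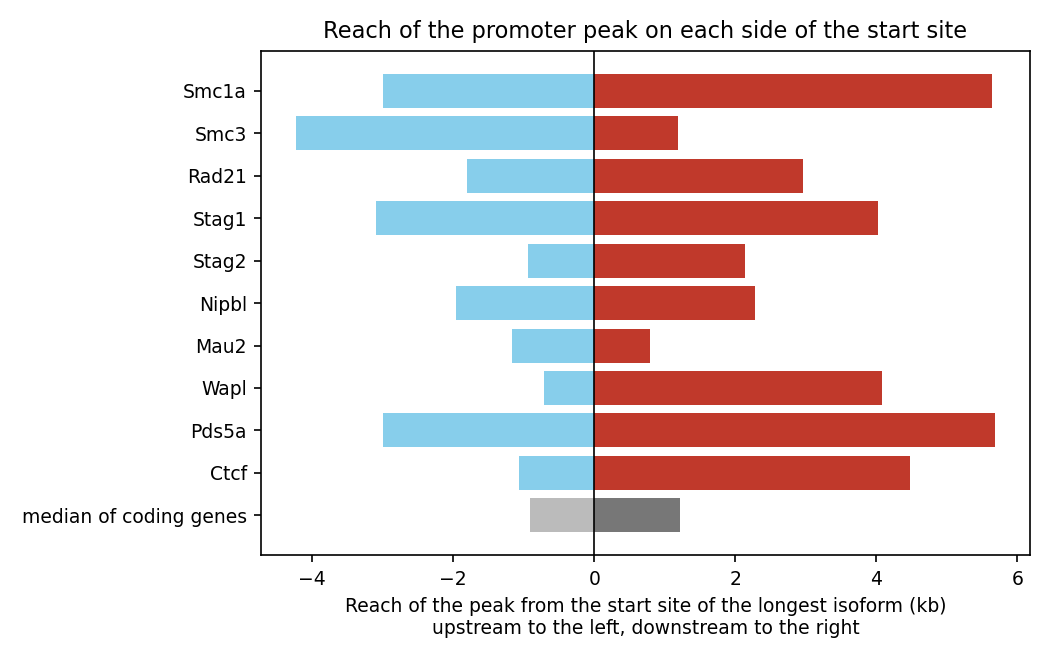
Reach in kb of the promoter peak from the TSS of the longest isoform, upstream (light bars, to the left) and downstream (dark bars, to the right), for the 10 genes and, in grey, the median of the 9663 protein-coding genes with that TSS in a peak. There are no error bars since the list is pooled. The peaks of Smc3 and Mau2 reach further upstream, and those of the other 8 further downstream.

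Downstream reach exceeded upstream reach at 8 of the 10 genes, against 65.8% of the 9663 protein-coding genes with that TSS in a peak. The medians over the 10 genes were 1875.5 bp upstream and 3491 bp downstream, against 904 and 1210 bp over the 9663. Relative to the length of the genes, the picture was another. The 10 genes had a median length of 60205.5 bp, against 23844 bp for marked protein-coding genes, and peaks covered a median of 6.07% of them (1.48 to 14.5%), against 9.68% (quartiles 3.57 and 25.9%). Peaks within 50 kb numbered 0 to 5 per gene with a median of 2.5, against a median of 2 and quartiles of 1 and 4 for marked protein-coding genes. Of the 21 such peaks, 12 lay upstream and 9 downstream, 9 covered a promoter of another gene, 3 lay elsewhere in another gene and 9 outside any gene.

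In base composition, most promoter peaks of the 10 genes were richer in CpG than the peaks in and around the genes. The CpG ratio, the number of CpG dinucleotides over that expected from the C and G present, had a median of 0.652 over the 11 promoter peaks, with Smc1a lowest at 0.308 and Nipbl highest. In the 4 gene body peaks it was 0.118 to 0.208, below every promoter peak. In the 21 peaks within 50 kb it was 0.0877 to 0.769 with a median of 0.289, and the highest value was that of the peak at Rbm20. For comparison, the median was 0.579 over all 10223 peaks on promoters of protein-coding genes and 0.218 over the 12750 other peaks. GC content of the 11 promoter peaks had a median of 48.5% (44.2 to 60.0%), below the 53.3% over the 10223 peaks on promoters of protein-coding genes.

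**Figure D4:**
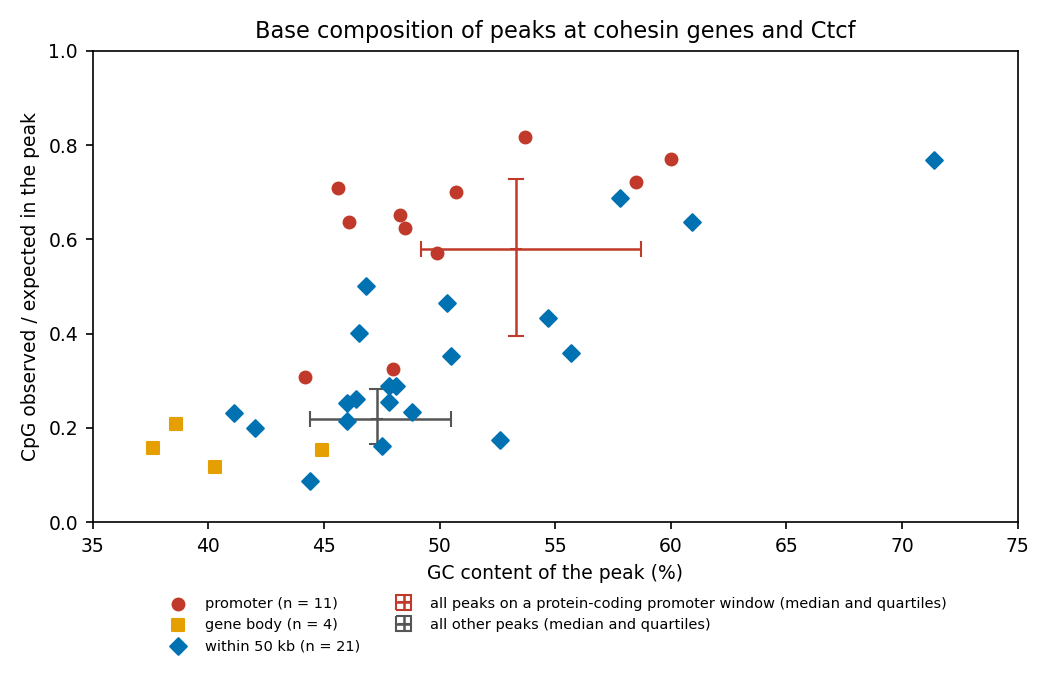
GC content in percent against the CpG observed over expected ratio of each of the 36 peaks. Red circles are promoter peaks, orange squares gene body peaks and blue diamonds peaks within 50 kb, and the crosses give the median and quartiles of all peaks on promoters of protein-coding genes (red) and of all other peaks (grey). The 4 squares lie at 0.208 or lower on the vertical axis and all circles at 0.308 or higher.

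The sequence nearest the TSS was richer in CpG than the whole peaks. In the RefSeq table, which gives 250 bases before and 50 after each start, 7 of the 10 genes were matched, with 8 starts (Rad21, Stag2 and Nipbl were not matched). Their main starts had CpG ratios of 0.903 (Smc1a), 0.908 (Mau2), 1.01 (Smc3), 1.06 (Stag1), 1.09 (Wapl), 1.14 (Pds5a) and 1.16 (Ctcf), against a median of 0.588 over 20145 promoters of 16517 protein-coding genes. These background promoters, used for the motifs below as well, include alternative starts and genes without an H3K27ac promoter peak. A background of marked genes alone was not computed. GC content was 56.0% at Mau2 to 80.3% at Pds5a, against a median of 57.0%. On either strand, the GC box GGGCGG, the binding sequence of SP1 and related factors, was present at 7 of the 8 starts, all but the second one of Mau2, and in 47.8% of the promoters of protein-coding genes. The box CCAAT was present at 3 of the 8 starts (Smc1a, Stag1 and Wapl) and in 37.8% of promoters. None of the 8 starts held TATAAA (12.2% of promoters), CCGGAAG (ETS factors, 11.9%), GCATGCGC (NRF1, 3.65%), AAGATGG (YY1, 6.3%) or AGGGGGC (a core of the CTCF motif, 13.3%). None of these motifs contains another, and a match is no evidence of binding.

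Genes of related complexes, in lists also chosen with earlier results of these data known, were examined in the same way. Their counts stand against the 51.0% of all protein-coding genes with a promoter peak, and their widths against the median of 2225 bp. Among 15 other regulators of cohesin, 14 had a promoter peak, with a median width of 3545 bp. The narrowest was that of Pds5b, the paralogue of Pds5a, at 1000 bp. Esco2, whose product acetylates SMC3, had 6534 bp, and Esco1, with the same activity, 1805 bp. Hdac8, which removes that acetyl group, was the gene without one. The start of Hdac8, on the X chromosome, lay 192 kb from the nearest peak, which is inside the gene body. Of 5 meiotic or germline paralogues, 3 had a promoter peak, a share near that of all protein-coding genes, and these were narrow (795 bp at Smc1b, 1784 bp at Rec8, 1849 bp at Stag3), each narrower than the widest promoter peak of any of the 10 genes and than the median of 2225 bp over marked protein-coding genes. Rad21l and Ctcfl, the germline paralogue of Ctcf, had none, with the nearest peak 33.9 kb and 35.2 kb from the start. All 14 genes of condensin and of the SMC5/6 complex, which are SMC rings of other function, had a promoter peak, with a median width of 2803.5 bp and a range from 1209 bp at Smc5 to 9814 bp at Ncapd2.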

How the data were processed

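Mouse embryonic stem cells were profiled by H3K27ac ChIP-seq in 3 groups of 2 samples, and 1 deposited file was used, the list of peaks the authors called on both control replicates together. Per the methods, reads trimmed by Cutadapt were aligned with BWA to mouse and human genomes, duplicates and reads of low mapping quality were dropped (the submitters' processing notes name Picard 2.9.1 and SAMtools 1.4), and LanceOtron called the peaks. The authors then merged neighbours and kept those above height thresholds and near open chromatin. Replicates were pooled, and by the study's reporting summary one control library was sequenced far more deeply than the other, so it weighs more in the list. The deposited values are positions in bp on mm10 (GRCm38), with no score, p-value or count, and the depth behind a peak cannot be read from them.

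Coordinates were converted to count from 1 and compared with GENCODE M21, an earlier release than that of the paper. TSSs of protein-coding and lincRNA transcripts were used. The reach of a peak was measured from the start of the isoform with the longest span. Genes of like length were 0.5 to 2 times as long. Gaps were measured from the outermost promoter peaks. CpG ratios were taken from the reference genome, and motifs from RefSeq promoters.

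The members and lists were chosen with earlier results of these data known. Named were all members, genes sharing their promoter peak, up to the nearest 2 genes holding a neighbouring peak, and the gene nearest in log2 reach to the members whose widest promoter peak was widest and narrowest. Genes were also named from lists in which at most 5 genes were marked or at most 5 unmarked. Not every gene of these lists was named. Samples were grouped by their labels. No test was made, and intervals are 95% Wilson intervals for counting error only. Alternatives, 13 in all, changed isoforms, windows, overlap, peak width, the definition of gene body and the flank. On simulated peaks for 1204 genes of chromosome 1, all peak sets and distances were recovered. Scripts ran in Python 3.11.15 (matplotlib 3.10.9, numpy 2.4.6, scipy 1.17.1, pandas 2.3.3). The treated samples were not analysed here.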

Additional observations from a re-analysis of the deposited data

How the results depend on the processing

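Of 50 values recomputed with 1 choice changed at a time, 35 stayed within the limits set and 15 moved. All 10 genes had a promoter peak and their median width was 5106 bp under each of the 7 alternatives for promoters. The share of protein-coding genes with a promoter peak, 51.0%, was 48.8% with the longest isoform only, 51.8% with every annotated transcript, 51.9% with a window of 2 kb, 47.7% with the TSS inside the peak, 45.6% with peaks of at least 1 kb and 49.6% with an overlap of at least 500 bp. TSSs of the 10 genes with a peak, 24 of 29, were 10 of 10 with the longest isoform only and 37 of 64 with every annotated transcript, so the share fell with the latter. By peak midpoint, 5 genes in place of 3 had a gene body peak. The added ones were Smc1a and Ctcf, whose promoter peaks have midpoints 1327 and 1701 bp past the TSS. The share of protein-coding genes with a gene body peak, 19.3%, was 22.7% by midpoint, 17.3% with peaks of at least 1 kb and 16.9% without peaks on other promoters. Neighbouring peaks, 21 within 50 kb, numbered 9 within 20 kb, 40 within 100 kb and 12 without those on promoters, by construction of these limits. Genes without a neighbouring peak were Pds5a, Wapl, Nipbl and Stag2 within 20 kb and Nipbl alone within 100 kb.

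No paired analysis was possible because both control replicates were pooled in the list. No replicate was left out for the same reason, and whether a peak was present in each replicate was not tested. Without the reads behind each peak or its height, an unlisted promoter cannot be told apart from one below the thresholds of the authors.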
